A study of Mus musculus with 11 samples.

Results

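The spleens of mice with BCL2 knocked in at the immunoglobulin kappa light chain locus (KI) were compared with the spleens of wild-type mice (Wt) across all 10885 genes of the deposited table. The 4 libraries were chosen by the tissue and genotype in their labels, out of 11 in the series: KI mice 5 and 6, labelled Knock-in (Igk-BCL2), and Wt mice 1 and 2, labelled Wild-type. Each library came from a separate mouse. Mice of both groups had been immunised intraperitoneally with sheep red blood cells over 3 months, and tissue was taken 1 month after the last injection, so the Wt spleens were those of immunised animals. RNA was extracted from the dissociated cells of whole spleen, without sorting, and libraries were made with a SMARTER kit. The other 7 libraries were lymph nodes (LN) of the same 4 mice, LN of mice 3 and 4 and the spleen of mouse 4 (labelled Transgenic (3'RR-BCL2), Tg). They served to estimate the spread between mice and to compare the spleen with the LN. Strain, age, sex, the number of knock-in copies and the species of the inserted BCL2 were not given in the labels used here.

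BCL2 is a mitochondrial membrane protein that blocks the intrinsic, mitochondrial route of apoptosis by binding pro-death relatives such as BIM and BMF. The kappa locus encodes the light chain that most mouse B cells use, is active from the pre-B stage onwards and is transcribed very strongly in plasma cells. A cell that fails to make a kappa chain can rearrange its lambda loci. The spleen holds B cell follicles, in which germinal centres form after immunisation, a marginal zone of innate-like B cells, T cell zones, and a red pulp of macrophages, red cells and plasma cells. Plasma cells secrete antibody at a high rate and carry an enlarged endoplasmic reticulum (ER) with its folding and degradation machinery. Immediate early genes, by contrast, are transcribed within minutes of antigen receptor or stress signalling, and their messages are short-lived.

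The light chain genes set 1 KI library apart before any comparison of groups. Igkc, the kappa constant gene, stood at 336217 and 5793 in KI mice 5 and 6, against 69156 and 81719 in Wt mice 1 and 2, in units of the deposited normalised signal. The 79 kappa V segments of the table summed to 172700 and 142 in KI spleens, against 36311 and 43756 in the Wt spleens. In KI mouse 6, 42 of the 79 were at 0 and the highest stood at 31.5, and all 79 lay below both Wt spleens, whereas in KI mouse 5, 69 lay above both. The 5 kappa J segments summed to 1458 and 0 in the KI spleens, against 794 and 739 in the Wt spleens. KI mouse 6 therefore had almost no rearranged kappa message, and its LN had the same pattern, with a kappa V sum of 168. Lambda genes were high in both KI spleens and highest in the one with little kappa message: the 3 lambda constant genes summed to 40476 and 159364 in the KI spleens, against 7788 and 8280 in the Wt spleens. Igkc made up 89.3% and 3.51% of the light chain constant signal in the KI spleens, against 89.9% and 90.8% in the Wt spleens. The labels give both KI mice the same genotype, and whether they differ in knock-in copies was not tested. Throughout, pairs of values are given in the order mouse 5 and mouse 6 for KI, and mouse 1 and mouse 2 for Wt.

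**Figure D1:**
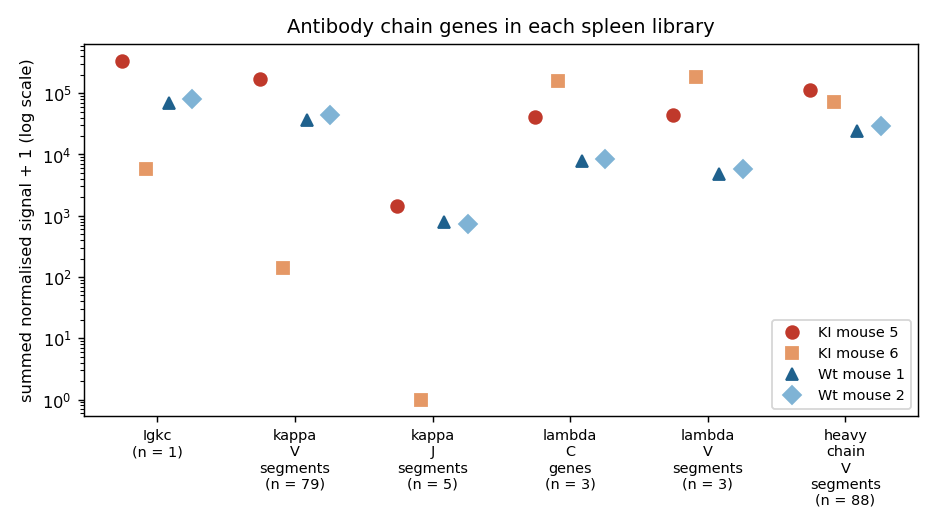
Summed normalised signal plus 1 (log axis) of antibody chain genes in each of the 4 spleen libraries, 1 point per mouse, with the number of genes in each class below its name. KI mouse 6 lies far below the other 3 spleens for Igkc and for the kappa V and J segments (0 for the 5 J segments) and highest for the lambda genes. Both KI spleens lie above both Wt spleens for the heavy chain V segments.

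Apart from the antibody genes, the KI spleens differed from each other about as the Wt spleens did. Over all genes the log2 difference between the 2 mice of a group had an SD of 0.90 in KI and 0.45 in Wt, but without immunoglobulin genes it was 0.32 in KI and 0.43 in Wt. Of the 102 genes more than 8-fold apart between the KI spleens, 90 were immunoglobulin genes and 85 of these kappa genes. Xist, the RNA of the inactive X chromosome, was at 4.29 and 4.3 in KI spleens, against 14513 and 1.57 in Wt spleens. The Y-linked Ddx3y was at 2044 and 1452 in KI spleens, against 0 and 2711 in Wt spleens. By these genes, Wt mouse 1 was female and the other 3 mice male. Markers of red pulp macrophages, which define spleen, summed to 14847 and 14841 in KI spleens, against 12491 and 13145 in the Wt spleens, and to between 1684 and 3230 in the 4 LN of the same mice. None of the listed markers of exocrine pancreas or fat was in the table. Depth over the genes of the table was between 18994455 and 24110325 reads per spleen library.

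Between KI and Wt spleens 1833 of 10885 genes (16.8%) were called, meaning that the Benjamini-Hochberg adjusted p of limma was under 0.05 on log2(value + 1). Of these, 830 rose (7.63% of all genes) and 1003 fell (9.21%), and the median log2 difference of all genes was 0.01. The change passed 4-fold for 65 genes that rose and 94 that fell. In another scaling, immunoglobulin and haemoglobin genes were dropped and each library was scaled to the same total of the remaining genes. The split then moved to 1427 higher and 816 lower (63.6% higher, against 45.3% in the split above), so the balance of directions depends on the scaling. Leaving out 1 library of the 4 left between 624 and 747 calls, and 380 genes (3.49%), 136 higher and 244 lower, were called in the full set and without each of the 4 libraries in turn. Such a call is said to hold below, a term that covers these omissions and no other setting. Group ranges that do not overlap are common at this size. All values of KI lay above those of Wt for 34.4% of genes and below them for 31.9%. The groups of all 1833 called genes did not overlap, so for a called gene this describes the values and adds no support.

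**Figure D2:**
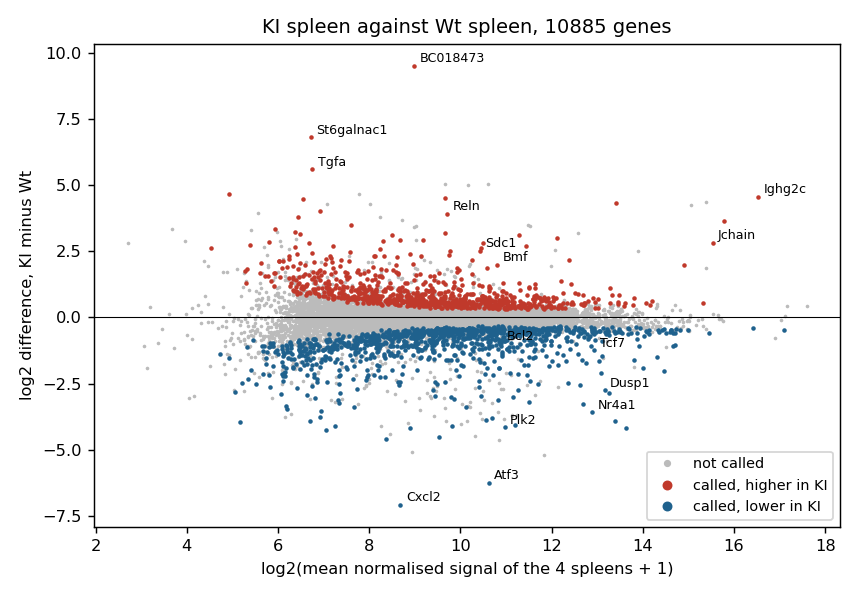
Log2 difference between KI and Wt spleen (vertical) against the log2 mean normalised signal of the 4 spleens (horizontal) for 10885 genes, 1 point per gene, with called genes coloured by direction. BC018473 lies highest and Cxcl2 lowest among the called genes, and the labelled plasma cell genes Jchain, Sdc1 and Ighg2c rose while Atf3, Plk2 and Nr4a1 fell.

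Outside the receptor segments and predicted genes, the largest increases were led by a cluster of neighbours on chromosome 11. BC018473, a transcript with no described protein function in the sources used here, was at 1056 and 966 in KI spleens, against 0.928 and 0 in Wt spleens. The KI spleens held 2579 reads of it and the Wt spleens 1, a ratio of 2364 with a 95% exact counting interval of 424 to 93422. St6galnac1, an enzyme that adds sialic acid to O-linked glycans, was at 215 and 199 in KI spleens, against 0.928 and 0.787 in Wt spleens, a ratio of 242 (66.8 to 2008). Both pairs of groups were far apart, and the fitted log2 differences of 9.51 ± 0.85 and 6.81 ± 0.92 depend on the pseudocount because the Wt values are at or near 0. In the gene order of RefSeq GRCm38.p6, BC018473 stands between St6galnac2 and St6galnac1 among measured genes. St6galnac2, a related sialyltransferase, rose with 358 and 353 in KI spleens, against 25.1 and 37.8 in Wt spleens, a log2 difference of 3.49 ± 0.30 (limma adjusted p = 0.000187). Cygb, cytoglobin, which lies 3 places before BC018473, rose by 3.34 ± 0.53, with 105 and 115 in KI spleens, against 8.36 and 11.8 in Wt spleens. Of the other measured neighbours within 6 places, 1 was called: Rhbdf2, next to Cygb and named for its place, at 1987 and 2163 in KI spleens, against 1687 and 1532 in Wt spleens, a log2 difference of 0.37 ± 0.11 (limma adjusted p = 0.0487) that was lost under every omission. Snhg16, between Cygb and St6galnac2, stood at 215 and 246 in KI spleens, against 356 and 326 in Wt spleens. Jmjd6, just beyond St6galnac1, stood at 1245 and 1177 in KI spleens, against 1179.9 and 1597 in Wt spleens. The calls of BC018473, St6galnac1, St6galnac2 and Cygb held. At the kappa locus itself, the next measured gene after Igkc on chromosome 6 is the predicted gene Gm30211, picked for its place after its values were seen. It rose with 939.9 and 1310.4 in KI spleens, against 465 and 416 in Wt spleens, a log2 difference of 1.33 ± 0.21 (limma adjusted p = 0.00294), and the call held. Rpia beyond it was not called, with 1300.1 and 1009 in KI spleens, against 1196 and 1309.6 in Wt spleens.

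The remaining large increases came from genes of varied function. Tgfa, a ligand of the EGF receptor, was at 184 and 238 in KI spleens, against 2.79 and 3.93 in Wt spleens, a log2 difference of 5.61 ± 0.52. Reln, which encodes the extracellular glycoprotein reelin, was at 1600.3 and 1547 in KI spleens, against 88.2 and 120.3 in Wt spleens, a difference of 3.92 ± 0.30 (limma adjusted p = 0.000207). Arhgap8, a GTPase-activating protein, rose by 3.81 ± 0.43, Scn8a, a voltage-gated sodium channel subunit, by 3.23 ± 0.32, and Col27a1, a fibrillar collagen, by 3.19 ± 0.31. These 5 calls held, and in each gene the KI values lay far above the Wt values. Spag6, a sperm axoneme protein, rose by 4.46 ± 0.76 with 218 and 139.7 in KI spleens, against 5.57 and 8.65 in Wt spleens, a call lost without KI mouse 5. Lrrc15, a leucine-rich repeat membrane protein, had 151 reads in the KI spleens and 3 in the Wt spleens, a ratio of 46.1 (15.5 to 226, exact counting interval), and its call was lost under every omission. Rag1, which cuts DNA for antigen receptor rearrangement, was at 92.6 and 360.4 in KI spleens, against 4.64 and 21.2 in Wt spleens. KI mouse 6, the mouse with little kappa message, was the highest. The call was lost without KI mouse 5, KI mouse 6 or Wt mouse 1.

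Bcl2, as counted in the table, fell in the KI spleens: it was at 1249 and 1299 in KI spleens, against 2612 and 2426 in Wt spleens, a log2 difference of -0.98 ± 0.20 (limma adjusted p = 0.011). The KI values were alike and lay below both Wt values, but the call was lost without any 1 of the 4 libraries; how far the inserted BCL2 is counted under this gene was not tested. No other pro-survival member of the 7 measured was called. Mcl1, which protects activated lymphocytes and plasma cells, was at 11854 and 11828 in KI spleens, against 14273 and 15689 in Wt spleens. Bcl2l1, which encodes BCL-XL, was at 328 and 225 in KI spleens, against 229 and 292 in Wt spleens. Among 9 measured pro-death members, 1 rose and 1 fell. Bmf, a BH3-only protein that binds BCL2, was at 2286 and 3496 in KI spleens, against 659 and 754 in Wt spleens, a rise of 2.0 ± 0.25 (limma adjusted p = 0.00193), with the higher value in KI mouse 6. Pmaip1, which encodes NOXA, a BH3-only partner of MCL1, was at 500.0 and 367 in KI spleens, against 2632 and 1974 in Wt spleens, a fall with a log2 difference of -2.41 ± 0.33 (limma adjusted p = 0.0049). Both calls held. Bcl2l11, which encodes BIM, stood at 2104 and 2018 in KI spleens, against 1547 and 1429 in Wt spleens and was not called (0.47 ± 0.16, limma adjusted p = 0.0635). It was called higher under the scaling to equal totals without immunoglobulin and haemoglobin genes and under quantile normalisation. So it was in the fits on spleen libraries alone and with 1 weight for each genotype. Bax, Bak1, Bid, Bad, Bbc3 and Bcl2l13 were not called.

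Antibody transcripts took a larger share of the KI spleens, 8.23% and 5.25% of all signal, against 1.90% and 2.18% in the Wt spleens. Of 192 immunoglobulin genes measured, 29 rose and 0 fell, and 22 of the 88 heavy chain V segments rose (median log2 difference 1.56 over all 88). Heavy chain V segments summed to 113856 and 70601 in KI spleens, against 24474 and 28975 in the Wt spleens. Related segments share sequence, so reads of single V segments may be split by the counting. Among the 12 constant region genes 4 rose, all of switched classes. Ighg2c, of the IgG2c class, was at 234479 and 126480 in KI spleens, against 4505 and 11991 in Wt spleens, a difference of 4.55 ± 0.62 (limma adjusted p = 0.0088). Igha, of the IgA class, was at 55754 and 41663 in KI spleens, against 9960.4 and 14883 in Wt spleens, a difference of 1.98 ± 0.28 (limma adjusted p = 0.0037); both calls held. Ighg2b rose by 3.65 ± 0.63, a call lost without either Wt mouse, and Ighe by 2.92 ± 0.73, a call lost under every omission. Ighm, of the unswitched IgM class, was not called, with 178857 and 154199 in KI spleens, against 143000 and 108355 in Wt spleens. Ighg1 was not called either, with 82293 and 46398 in KI spleens, against 7955 and 35935 in Wt spleens. Ighg3 had overlapping groups, with 4396 and 46480 in KI spleens, against 5338 and 23643 in Wt spleens. The 3 lambda constant genes lay above Wt in both KI spleens without being called, and Igkc was not called, with KI values on either side of the Wt values. Without KI mouse 6, 27 heavy chain V segments rose, and without KI mouse 5, Wt mouse 1 or Wt mouse 2, 8, 7 and 10 rose.

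Genes of plasma cell identity were in part higher: of 20 measured, 8 rose and 2 fell, with a median log2 difference of 0.68 beside 0.01 for all genes. Without KI mouse 5, KI mouse 6, Wt mouse 1 and Wt mouse 2 in turn, 5, 8, 5 and 5 rose. In bulk tissue, more cells of a type and more RNA per cell cannot be told apart, for these and for all marker genes below. Jchain, the chain that joins IgM and IgA polymers, was at 105380 and 61413 in KI spleens, against 11929 and 10992 in Wt spleens, a difference of 2.81 ± 0.26. Sdc1, the plasma cell surface proteoglycan CD138, was at 2692 and 2029 in KI spleens, against 412 and 398 in Wt spleens. Mzb1, an ER chaperone cofactor for immunoglobulin, was at 801 and 836 in KI spleens, against 311 and 372 in Wt spleens (1.26 ± 0.14, limma adjusted p = 0.000478). The KI values were above both Wt values in all 3, and these calls held, as did that of Tnfrsf13b, the receptor TACI, which rose by 0.68 ± 0.12. Xbp1, the transcription factor of the secretory programme, was at 9518 and 6233 in KI spleens, against 2712 and 3713 in Wt spleens, a rise of 1.28 ± 0.23 (limma adjusted p = 0.0079) that was lost without Wt mouse 1. Tnfrsf17, the plasma cell survival receptor BCMA, was low, at 80.6 and 78.1 in KI spleens, against 18.6 and 18.1 in Wt spleens, and rose by 2.06 ± 0.46, a call lost under every omission. Prdm1, which encodes BLIMP1, the repressor that fixes plasma cell fate, was at 592 and 493 in KI spleens, against 384 and 282 in Wt spleens and was not called. The members that fell were Irf4, a dose-sensitive transcription factor that activated B and T cells also induce, with 3292 and 3248 in KI spleens, against 9014 and 6065 in Wt spleens, and Cd28, a costimulatory receptor mainly of T cells. Cd28 was at 729 and 578 in KI spleens, against 2503 and 1716 in Wt spleens. Their calls were lost without KI mouse 5, KI mouse 6 or Wt mouse 1, and that of Irf4 also without Wt mouse 2.

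Some lists of the ER machinery had more rises than the 7.63% of all genes. In ER folding and disulphide formation 11 of 23 genes rose and 1 fell (median 0.39). In ER-associated degradation 5 of 14 rose and 1 fell (median 0.38). In translocation and signal peptide removal 4 of 24 rose, and among oligosaccharyl transferase subunits 2 of 11. In ER to Golgi transport 2 of 28 rose, a share near that of all genes. Under the omissions, in the order KI mouse 5, KI mouse 6, Wt mouse 1 and Wt mouse 2, 7, 8, 6 and 9 folding genes, 4, 4, 3 and 5 degradation genes, 1, 2, 1 and 4 translocation genes and 0, 1, 0 and 2 transferase genes rose. Under the scaling to equal totals without immunoglobulin and haemoglobin genes, 8 translocation, 5 transferase and 12 transport genes rose. Derl3, a derlin of the retrotranslocation channel, was at 2222 and 1792 in KI spleens, against 395 and 485 in Wt spleens, a difference of 2.19 ± 0.20 (limma adjusted p = 0.000234). Sel1l and Syvn1, which form the ubiquitin ligase complex of ER-associated degradation, rose by 1.28 ± 0.13 and 0.91 ± 0.13, and Sel1l was at 4761 and 4318 in KI spleens, against 1834 and 1895 in Wt spleens. Creld2, an ER protein with disulphide isomerase activity, was at 2936 and 2574 in KI spleens, against 920.0 and 1347 in Wt spleens, a rise of 1.30 ± 0.17. Sdf2l1, part of the BiP chaperone complex, rose by 1.20 ± 0.20. Txndc5, Txndc11 and Pdia6, all of the protein disulphide isomerase family, rose by 0.94 ± 0.15, 0.79 ± 0.11 and 0.70 ± 0.11, and Fkbp2, a prolyl isomerase, by 0.81 ± 0.13. All of these calls held, and so did those of Tram2, a translocon-associated protein (1.05 ± 0.19), and Lman1, a cargo receptor of ER exit (0.87 ± 0.14).

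The rise did not extend to all ER chaperones. Hspa5, which encodes BiP, the most abundant ER chaperone, was at 16696 and 15915 in KI spleens, against 17781 and 19571 in Wt spleens and was not called. Calr, a lectin chaperone of glycoproteins, was not called, with 11917 and 12296 in KI spleens, against 9744 and 11587 in Wt spleens. The groups of Pdia3, a disulphide isomerase, overlapped, with 4708 and 6178 in KI spleens, against 5059 and 5789.8 in Wt spleens. Dnajb9, a BiP cochaperone that restrains the stress sensor IRE1, fell: it was at 1334 and 1103 in KI spleens, against 4333 and 4018 in Wt spleens, a difference of -1.78 ± 0.17 (limma adjusted p = 0.000245). This call held. In a list of amino acid stress and synthesis genes 3 of 16 rose and 3 fell, and under the omissions 2, 1, 1 and 1 rose and 1, 2, 1 and 2 fell. Asns, asparagine synthetase, was at 400.5 and 716 in KI spleens, against 53.8 and 96.7 in Wt spleens, a rise of 2.87 ± 0.41 (limma adjusted p = 0.00238) that held. Atf4, the transcription factor of that response, fell, with 5019 and 5796 in KI spleens, against 9406 and 8811 in Wt spleens (-0.76 ± 0.13), a call that also held.

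Promoters of 4 ER genes that rose are shown because they hold the ER stress element, CCAAT and CCACG with 9 bases between them, the composite site at which NF-Y and the unfolded protein response factors bind. The windows searched, on both strands, ran from 250 bases before to 50 after the RefSeq start on GRCm38.p6, and 8496 genes of the table had one. The element stood in 17 of them (0.200%), of which 8 were called, 6 higher. It stood in 8 of 21 windows of the folding list and 2 of 13 of the degradation list, and in none of the 17, 10 and 24 of the translocation, transferase and transport lists. The holders on these lists that rose were Hsp90b1 (GRP94), Pdia6, Creld2, Derl3 and Syvn1. The holders Hspa5, Calr, Canx, Dnajc3 and Ero1b were not called. Over the whole lists, with holders included, 11 of 23 folding and 5 of 14 degradation genes rose, so the rises do not set the holders apart. A match describes these letters, not a bound site. The 4 with the smallest p are given 5′ to 3′ on the strand of the gene, as the 100 bases around the element, whose fixed bases are in capitals. Derl3 (chr10:75893201-75893300, plus strand) and Creld2 (chr15:88819479-88819578, plus strand) carry it on the opposite strand, so it reads in reverse complement. Syvn1 (chr19:6046476-6046575, plus strand) and Pdia6 (chr12:17266450-17266549, plus strand) carry it on the same strand.

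Derl3: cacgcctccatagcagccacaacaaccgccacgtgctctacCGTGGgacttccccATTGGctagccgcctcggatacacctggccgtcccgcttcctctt
Creld2: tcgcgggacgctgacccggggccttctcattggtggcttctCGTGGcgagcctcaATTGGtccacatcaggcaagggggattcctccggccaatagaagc
Syvn1: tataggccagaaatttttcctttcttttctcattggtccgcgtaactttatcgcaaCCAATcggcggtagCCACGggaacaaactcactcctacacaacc
Pdia6: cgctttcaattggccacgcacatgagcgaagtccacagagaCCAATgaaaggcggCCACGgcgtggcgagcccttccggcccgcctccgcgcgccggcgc

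The element ended 137 bases before the start in Derl3, 107 in Creld2, 25 in Syvn1 and 79 in Pdia6. Of these 4, Derl3 had the largest rise and Pdia6 the smallest.

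Genes of germinal centre B cells were in part higher: 6 of 18 rose and 1 fell, with a median of 0.99. Under the scaling to equal totals without immunoglobulin and haemoglobin genes 13 rose. Efnb1, an ephrin of germinal centre B cells, was at 574 and 451 in KI spleens, against 108 and 197 in Wt spleens, a rise of 1.80 ± 0.28 (limma adjusted p = 0.00349). Rgs13, a regulator of chemokine receptor signalling, was at 257 and 158 in KI spleens, against 36.2 and 66.1 in Wt spleens, a rise of 2.02 ± 0.35. Both calls held. Nuggc, a nuclear GTPase of germinal centres, was at 953 and 628 in KI spleens, against 96.5 and 216 in Wt spleens and rose by 2.41 ± 0.40. Mybl1, a transcription factor, was at 732 and 309 in KI spleens, against 52 and 118 in Wt spleens and rose by 2.59 ± 0.57. Both calls were lost without KI mouse 5, and Mybl1 also without Wt mouse 1. In Mybl1, KI mouse 5 was the highest and Wt mouse 1 the lowest. Bcl6, the master regulator of the germinal centre, was not called, with 2326 and 2222 in KI spleens, against 1799 and 1429.9 in Wt spleens. It was called higher under that scaling, under quantile normalisation, in the fits on spleen libraries alone and with 1 weight for each genotype. Ung, a DNA glycosylase of base excision repair, fell, with 240.1 and 256 in KI spleens, against 375 and 385 in Wt spleens, a call lost under every omission. Without KI mouse 5, KI mouse 6, Wt mouse 1 and Wt mouse 2 in turn, 2, 7, 3 and 6 genes of the list rose.

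Of 20 genes of the B cell receptor complex and its signalling, 8 rose and 1 fell (median 0.36). Under the omissions 4 rose without KI mouse 5, 2 without KI mouse 6, 3 without Wt mouse 1 and 2 without Wt mouse 2. Fcgr2b, the inhibitory Fc receptor of B cells and plasma cells, was at 4012 and 4072 in KI spleens, against 1855 and 1739.9 in Wt spleens, a rise of 1.17 ± 0.10 (limma adjusted p = 0.000207). Cd79b, a signalling chain of the receptor, was at 15992 and 20265 in KI spleens, against 10924 and 10457 in Wt spleens, a rise of 0.75 ± 0.13, and both held. Btk, a kinase of the pathway, rose by 0.54 ± 0.12, a call lost without KI mouse 6 or Wt mouse 2. Bcl10, an adaptor towards NF-kB, fell by 0.46 on the log2 scale, a call lost under every omission. The list of pan-B cell markers summed to 198910 and 220257 in KI spleens, against 165844 and 152600 in Wt spleens. Of its 16 members 4 rose, with 2, 1, 2 and 1 under the omissions. Under the scaling to equal totals without immunoglobulin and haemoglobin genes 8 of them rose. Among genes of the pre-B stage, Vpreb3, a surrogate light chain partner, rose with 451 and 646 in KI spleens, against 271 and 271 in Wt spleens, a call lost without KI mouse 6, Wt mouse 1 or Wt mouse 2. Il7r, which T cells also express, fell with 1454 and 1621 in KI spleens, against 3486 and 3199.7 in Wt spleens, and the call held. Cd40lg, the T cell ligand of CD40, fell with 136 and 116 in KI spleens, against 279 and 277 in Wt spleens, and held.

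Marginal zone B cell markers were lower, with 8 of 14 fallen, 1 risen and a median of -0.61. Under the omissions 3, 4, 2 and 4 fell, in the order KI mouse 5, KI mouse 6, Wt mouse 1 and Wt mouse 2. Cr2, the complement receptor CD21, which is highest on these cells, was at 3446 and 3327 in KI spleens, against 9145 and 8561 in Wt spleens, a fall with a difference of -1.39 ± 0.16 (limma adjusted p = 0.000664). Myof, the membrane repair protein myoferlin, was at 342 and 355 in KI spleens, against 1086 and 974 in Wt spleens (-1.56 ± 0.17), and both calls held. Cd1d1, which presents lipids, fell with 472 and 586 in KI spleens, against 883 and 832 in Wt spleens, a call lost without KI mouse 5 or Wt mouse 1. Cd9 and Dtx1 fell in calls that every omission lost. S1pr3, the receptor that positions these cells in the marginal zone, was not called, with 362 and 416 in KI spleens, against 581 and 525 in Wt spleens. Dennd5b rose, with 3113 and 2118 in KI spleens, against 1479 and 1100.4 in Wt spleens, a call lost without KI mouse 5 or Wt mouse 2.

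T cell markers were lower almost throughout. Of 24 measured, 21 fell and 0 rose, with a median of -1.09, 15 of the calls held, and 15, 16, 16 and 19 fell under the omissions in the same order of mice. Tcf7, the transcription factor TCF1 of naive T cells, was at 4535 and 4839.8 in KI spleens, against 11086 and 10968 in Wt spleens, a difference of -1.23 ± 0.12. Trac, the constant gene of the T cell receptor alpha chain, was at 1286 and 1238 in KI spleens, against 3019 and 2779 in Wt spleens (-1.20 ± 0.13, limma adjusted p = 0.000477). Cd3d, of the CD3 complex, was at 1008 and 1105 in KI spleens, against 2013 and 2459 in Wt spleens (-1.08 ± 0.14). In each of these both KI values were below both Wt values. T cell receptor segments moved likewise: 16 of 23 fell and 0 rose. The markers summed to 39999 and 43777 in KI spleens, against 87832 and 84513 in Wt spleens. The coreceptors were not called. Cd4 was at 2457 and 1996 in KI spleens, against 2846 and 3001 in Wt spleens. Cd8a was at 1381 and 2033 in KI spleens, against 2969 and 3559.9 in Wt spleens. In both, the KI values lay below the Wt values. Ccr7, the receptor that guides naive T cells to T zones and that activated B cells also carry, was at 2840.3 and 3546 in KI spleens, against 12538 and 8658 in Wt spleens (-1.71 ± 0.36), a call lost without KI mouse 5, KI mouse 6 or Wt mouse 1. Of 16 markers of regulatory and follicular helper T cells 4 fell, and 4, 0, 2 and 0 fell under the omissions. Ctla4, an inhibitory receptor, was at 216 and 143 in KI spleens, against 1255 and 1089 in Wt spleens, a call lost under every omission. Foxp3, the regulatory T cell factor, was not called, with 312 and 191 in KI spleens, against 361 and 424 in Wt spleens.

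NK and cytotoxic cell markers were also lower, 7 of 18 having fallen and 1 risen. Under the omissions 2, 5, 3 and 2 fell, in the same order. Ifng, the cytokine interferon gamma, was at 33.4 and 35.8 in KI spleens, against 234 and 159.7 in Wt spleens, a difference of -2.45 ± 0.39 (limma adjusted p = 0.00305). Ctsw, a protease of cytotoxic cells, was at 645 and 745 in KI spleens, against 1236 and 1512 in Wt spleens (-0.98 ± 0.17). Both calls held. Gzma, a granzyme, was not called, and its groups overlapped, with 359 and 690.0 in KI spleens, against 445 and 777 in Wt spleens. Tbx21, which encodes T-bet, rose, with 654 and 536 in KI spleens, against 385 and 383 in Wt spleens, a call lost without KI mouse 5, Wt mouse 1 or Wt mouse 2. Myeloid and red cell markers were dominated by single mice. Neutrophil markers summed to 3216 and 8996 in KI spleens, against 8561 and 63037 in Wt spleens, so Wt mouse 2 stood apart, and none of 20 was called. Erythroid markers summed to 29735 and 6312 in KI spleens, against 3158 and 3163 in Wt spleens, with KI mouse 5 highest. The 4 haemoglobin genes summed to 23362 and 2412 in KI spleens, against 957 and 479 in the Wt spleens. Of the 17 erythroid markers 5 rose and 1 fell, and none of the calls held. No marker of red pulp macrophages (17), of marginal zone and sinus macrophages (5), of stroma (4) or of mast cells, basophils and eosinophils (6) was called.

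**Figure D3:**
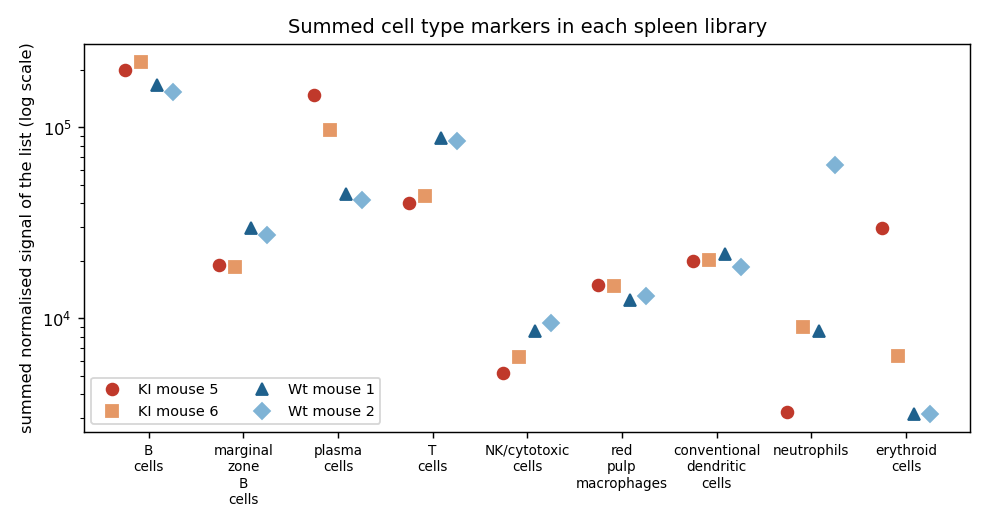
Summed normalised signal (log axis) of 9 lists of cell type markers in each spleen library, 1 point per mouse. Both KI spleens lie above both Wt spleens for plasma cell and B cell lists and below them for the T cell and marginal zone B cell lists. Neutrophil markers are highest in Wt mouse 2 and erythroid markers in KI mouse 5.

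Many genes of the activated state fell. Of 24 immediate early genes 19 fell and 0 rose (median -1.85), and of 20 MAP kinase phosphatases and other activation genes 16 fell and 0 rose (median -2.18), both beside a median of 0.01 for all genes. Without KI mouse 5, KI mouse 6, Wt mouse 1 and Wt mouse 2 in turn, 7, 9, 7 and 10 immediate early genes fell, and 12, 13, 11 and 14 of the other list. The 24 immediate early genes summed to 88947 and 93584 in KI spleens, against 280537 and 210926 in Wt spleens. Their sum in the single spleen of Tg mouse 4 was 222756, inside the Wt range. In that spleen the plasma cell list summed to 44248, also inside the Wt range. The T cell markers summed to 79726, below both Wt spleens and above both KI spleens. The germinal centre list summed to 20535, against 25443 and 21500 in KI spleens and 17497 and 17925 in Wt spleens. In the column names, Wt and Tg mice carry numbers near each other, and KI mice carry numbers far from them. What the numbers stand for is not given, and anything that goes with them cannot be told apart from genotype. This applies to every difference between KI and Wt given here, not only to the activation genes. Atf3, a stress-induced transcription factor, was at 37.7 and 40.1 in KI spleens, against 3816 and 2393 in Wt spleens, a difference of -6.24 ± 0.51 (limma adjusted p = 0.000889). Nr4a1, an orphan nuclear receptor that B and T cell receptor signals induce, was at 1361 and 964 in KI spleens, against 16889 and 11304 in Wt spleens (-3.59 ± 0.35). Csrnp1, a nuclear protein, was at 1683 and 1756 in KI spleens, against 6267 and 6042 in Wt spleens (-1.84 ± 0.20). These calls held, and the groups were several-fold apart, further than the 2 mice of either group. Junb, an AP-1 subunit, was at 8624 and 9205 in KI spleens, against 37544 and 34665 in Wt spleens (-2.02 ± 0.34), a call lost without KI mouse 5 or Wt mouse 1. Maff, a small MAF protein, was at 65.2 and 56.6 in KI spleens, against 1542 and 1299 in Wt spleens (-4.52 ± 0.69), but its call was lost under every omission. So were those of Jun, Egr1, Klf4, Klf6 and Fosl2. The exceptions were Fos, at 10807 and 8973 in KI spleens, against 14175 and 10963 in Wt spleens, Fosb, Egr3, Klf2 and Zfp36, none of which was called.

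Among the phosphatases, which switch off MAP kinases, Dusp5 was at 279 and 246 in KI spleens, against 4911 and 4006 in Wt spleens, a difference of -4.08 ± 0.48. Dusp1 was at 2378 and 2338 in KI spleens, against 14121 and 17983 in Wt spleens (-2.76 ± 0.35, limma adjusted p = 0.00387). Dusp4 and Dusp6 fell too, with differences of -3.01 ± 0.41 and -1.18 ± 0.13, and all 4 calls held. Dusp2, a phosphatase of the same family, was not called, with 5747 and 6342 in KI spleens, against 5207 and 5794 in Wt spleens, in overlapping ranges. Plk2, a polo-like kinase of the stress response, was at 224 and 201 in KI spleens, against 4391 and 3227 in Wt spleens. Its relative Plk3 was at 283 and 225 in KI spleens, against 1339.6 and 1386 in Wt spleens (-2.43 ± 0.15). The KI values of both were far below the Wt values. Rgs1, which dampens chemokine receptors in activated lymphocytes, was at 219 and 163 in KI spleens, against 3242 and 2438 in Wt spleens (-3.89 ± 0.21). Myc, a growth-promoting transcription factor, was at 933 and 1128 in KI spleens, against 5049 and 4226 in Wt spleens (-2.17 ± 0.15, limma adjusted p = 5.4e-05). Ppp1r15a, a regulatory subunit that restores translation after stress, was at 3517 and 3066 in KI spleens, against 15311 and 12603 in Wt spleens (-2.08 ± 0.25). The calls of Plk2, Plk3, Rgs1, Myc and Ppp1r15a held. Cd69, the early activation antigen, was at 607 and 406 in KI spleens, against 4340.1 and 3759.7 in Wt spleens (-3.02 ± 0.42), a call lost without Wt mouse 1. Gadd45b, Sgk1 and Icam1 were not called.

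**Figure D4:**
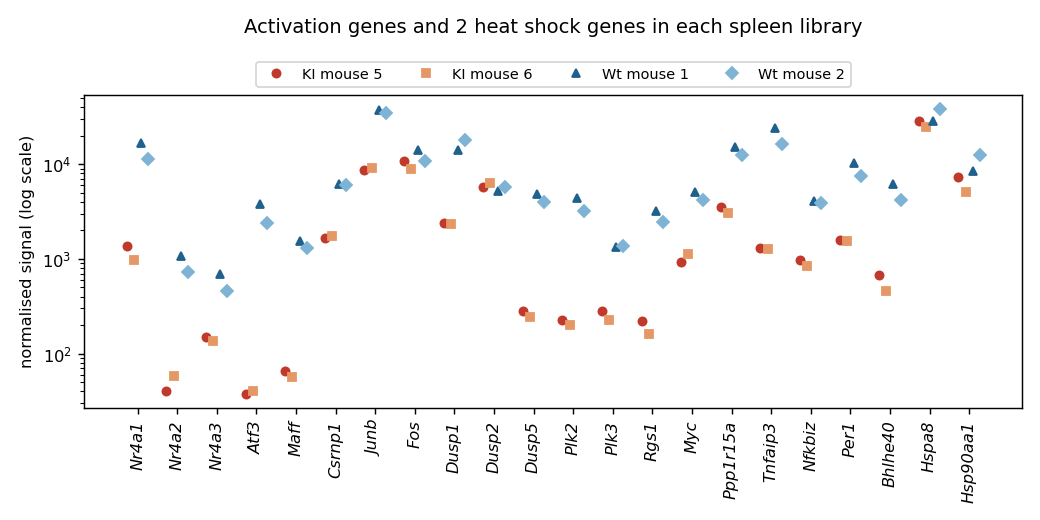
Normalised signal (log axis) of 20 activation genes and of the heat shock genes Hspa8 and Hsp90aa1 in each spleen library, 1 point per mouse. The KI points lie below the Wt points for 18 of the 20 activation genes by a clear gap, for Fos by a small one and not for Dusp2, and the 2 heat shock genes were not called.

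Targets and inhibitors of NF-kB fell in part: 9 of 17 fell and 0 rose. Under the omissions 2, 3, 2 and 7 fell, in the order KI mouse 5, KI mouse 6, Wt mouse 1 and Wt mouse 2. Nfkbiz, a nuclear IkB protein, was at 982 and 847 in KI spleens, against 4062 and 3945 in Wt spleens (-2.13 ± 0.29, limma adjusted p = 0.00447). Nfkb2, a subunit, fell by 0.71 on the log2 scale. Both calls held. Tnfaip3, the deubiquitinase A20, was at 1305 and 1289 in KI spleens, against 24162 and 16229 in Wt spleens (-3.93 ± 0.53), a call lost without KI mouse 5, KI mouse 6 or Wt mouse 1. The subunits Rela, with 3109.6 and 3596 in KI spleens, against 3414 and 3368 in Wt spleens, and Nfkb1 were not called. Of 16 circadian clock genes 4 fell and 0 rose, and all 4 calls held. Per1, a light- and signal-induced repressor of the clock, was at 1585 and 1564 in KI spleens, against 10272 and 7478 in Wt spleens (-2.48 ± 0.36). Bhlhe40, another repressor, was at 679 and 459 in KI spleens, against 6268 and 4215 in Wt spleens (-3.20 ± 0.35). Nfil3 and Ciart fell with differences of -2.44 ± 0.32 and -2.98 ± 0.42. Per1, Bhlhe40 and Nfil3 are also induced by acute signals. The core clock genes Arntl, with 516 and 569.6 in KI spleens, against 609 and 516 in Wt spleens, Clock, Cry1, Per2 and Nr1d1 were not called. Of 14 chemokines and cytokines 7 fell and 0 rose, with 4 fallen under each omission. Cxcl2, which recruits neutrophils, was at 12 and 1.43 in KI spleens, against 521 and 1111 in Wt spleens, a difference of -7.08 ± 0.76 (limma adjusted p = 0.000478). It was the largest called decrease outside receptor segments and predicted genes. Ccl3, which recruits T and NK cells, was at 81.5 and 138 in KI spleens, against 705 and 370.5 in Wt spleens. Its relative Ccl4 was at 42 and 69.5 in KI spleens, against 471 and 271 in Wt spleens. These 3 calls held. In the fit on the 5 spleen libraries alone, those of Cxcl2 and Ccl3 were lost. In the fit on the 4 KI and Wt spleens they were kept. Tnf was not called, with 232 and 219 in KI spleens, against 199 and 211 in Wt spleens.

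The other large decreases held several stress and signalling genes. Gla, the lysosomal enzyme alpha-galactosidase A, was at 106 and 86.7 in KI spleens, against 1907 and 1486 in Wt spleens, a difference of -4.12 ± 0.26. Thbs1, the matrix protein thrombospondin of platelets and macrophages, was at 24 and 27.2 in KI spleens, against 638 and 636 in Wt spleens (-4.58 ± 0.74, limma adjusted p = 0.00387). Both calls held. Irs2, an adaptor of insulin and IL-4 receptors, was at 1358 and 1291 in KI spleens, against 27364 and 21081 in Wt spleens, a call lost under every omission. Ptgs2, the prostaglandin synthase COX-2, was at 17.2 and 14.3 in KI spleens, against 244 and 331 in Wt spleens, a call lost without KI mouse 6 or Wt mouse 2. Nr4a2, a relative of Nr4a1, was at 40.3 and 57.3 in KI spleens, against 1081 and 737 in Wt spleens, a call lost without KI mouse 5. Foxq1, a forkhead factor, was at 2.57 and 1.43 in KI spleens, against 119 and 16.5 in Wt spleens, a call lost without KI mouse 5, KI mouse 6 or Wt mouse 1. Of 15 cytosolic heat shock genes none was called. They summed to 98033 and 80080 in KI spleens, against 94099 and 136823 in Wt spleens, so the groups overlapped. Hspa8, a constitutive chaperone, was at 28356 and 24558 in KI spleens, against 28647 and 38617 in Wt spleens. Hsp90aa1, the inducible cytosolic HSP90, was at 7306 and 5137 in KI spleens, against 8567 and 12664 in Wt spleens. The time between tissue collection and lysis is not given in the labels used here.

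Promoters of the activation genes were searched for the full cyclic AMP response element TGACGTCA, at which CREB and ATF factors bind. It stood in 311 of 8496 windows (3.66%), of which 56 were called, beside 16.8% called of all genes. It stood in 2 of 20 windows of immediate early genes, Btg2 and Maff, and in 3 of 15 of the other activation genes, Plk2, Dusp1 and Ppp1r15a. All 5 fell, but so did 19 of 24 and 16 of 20 genes of the whole lists, so the falls do not set the holders apart. The element is a palindrome, so both strands hold it at once. The 100 bases around it are shown 5′ to 3′ on the strand of the gene for the 4 that fell by over 4-fold, with the element in capitals: Plk2 (chr13:110394936-110395035, plus strand), Ppp1r15a (chr7:45526269-45526368, minus strand), Dusp1 (chr17:26508562-26508661, minus strand) and Maff (chr15:79347420-79347519, plus strand), on GRCm38.p6.

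Plk2: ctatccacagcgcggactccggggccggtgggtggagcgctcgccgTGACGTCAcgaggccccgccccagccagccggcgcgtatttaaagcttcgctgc
Ppp1r15a: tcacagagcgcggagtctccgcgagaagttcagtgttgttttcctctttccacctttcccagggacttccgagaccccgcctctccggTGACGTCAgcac
Dusp1: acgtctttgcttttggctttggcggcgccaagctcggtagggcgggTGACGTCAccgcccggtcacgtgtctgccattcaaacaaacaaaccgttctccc
Maff: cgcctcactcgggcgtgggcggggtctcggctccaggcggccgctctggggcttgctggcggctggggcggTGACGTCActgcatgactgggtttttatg

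The element ended 54 bases before the start in Plk2, 4 in Ppp1r15a, 135 in Dusp1 and 21 in Maff, for which RefSeq gives 3 starts. The other windows of both lists held no such match, which says only that these letters are not in the window searched.

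Several programmes showed few calls, apart from the cytosolic ribosomal proteins. Of 23 type I interferon response genes 3 rose (Stat2, Usp18 and Oas1a), with a median of 0.59, and none was called under any omission. Under the scaling to equal totals without immunoglobulin and haemoglobin genes 6 of them rose. Stat2 was at 2667 and 2769.9 in KI spleens, against 1997 and 1878 in Wt spleens. A pair of GAAA with 2 bases between them, the core of the interferon-stimulated response element, stood in 11 of 18 of their windows (61.1%) and in 348 of all 8496 (4.10%). Of 22 DNA replication genes 3 fell, and 1, 2, 1 and 2 under the omissions. Pcna, the sliding clamp, was at 2152 and 2081 in KI spleens, against 4059.7 and 4416 in Wt spleens (-1.0 ± 0.14, limma adjusted p = 0.00139), a call that held. None of 24 mitosis genes and none of 37 proteasome or 11 mitochondrially encoded genes was called. Of 78 cytosolic ribosomal proteins 22 fell and 0 rose, with a median of -0.42. That share of falls was larger than the 9.21% of all genes. Under the scaling to equal totals without immunoglobulin and haemoglobin genes 13 fell, and under quantile normalisation the median was -0.26. The call of Rpl3 alone held, at 15961 and 17191 in KI spleens, against 34165 and 36374 in Wt spleens (-1.09 ± 0.12). The others that fell were lost in 1 omission or more, and 1, 5, 2 and 1 fell under the omissions in the order KI mouse 5, KI mouse 6, Wt mouse 1 and Wt mouse 2. Of 84 nuclear oxidative phosphorylation genes 7 fell, and 1, 1, 2 and 1 under the omissions. Uqcrfs1, of complex III, was among those that fell in the full set, at 807 and 848 in KI spleens, against 1291 and 1281 in Wt spleens. MHC class II genes had 1 rise in 10 and MHC class I genes 1 fall in 13. Interferon-gamma GTPases had 1 rise and 1 fall in 15, conventional dendritic cell markers 2 falls in 13, plasmacytoid dendritic cell markers 2 rises and 1 fall in 9, platelet markers 2 falls in 8 and complement genes no call in 9. Of 18 homing and positioning receptors 2 rose and 3 fell, and no omission left more than 1 call in either direction. Cxcr5, which guides cells into follicles, was at 4833 and 6133 in KI spleens, against 3345 and 3263 in Wt spleens (0.72 ± 0.20). Its call was lost under every omission.

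**Figure D5:**
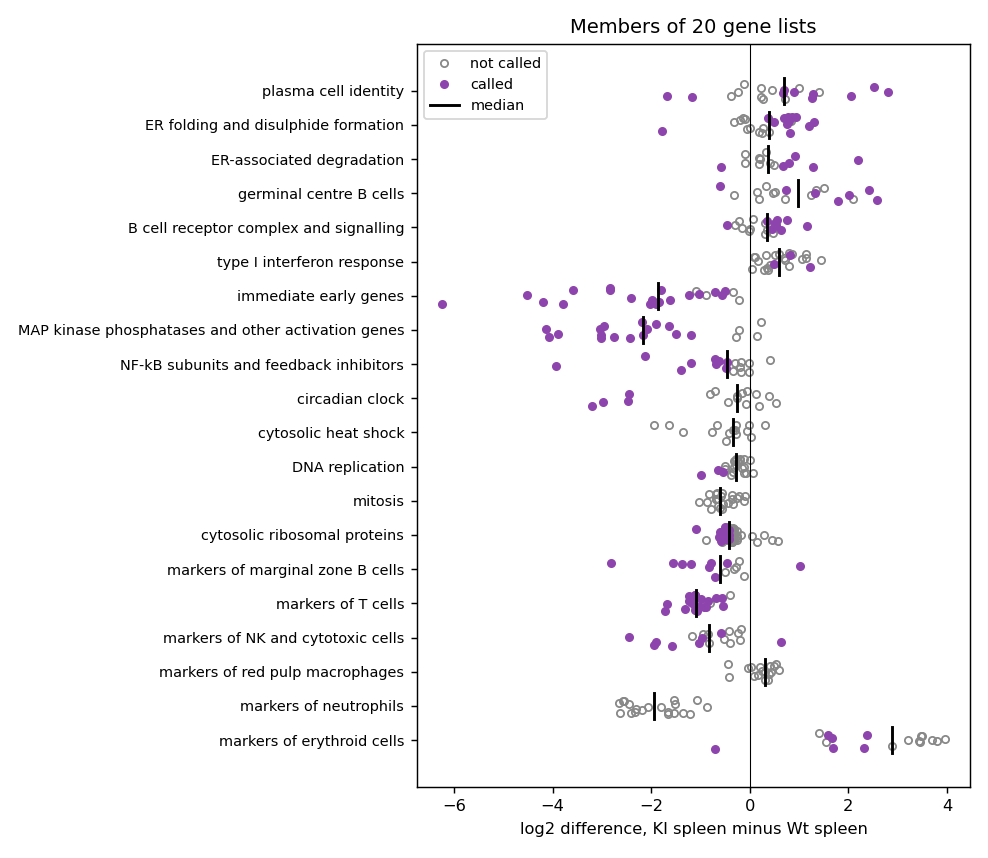
Log2 difference between KI and Wt spleen for the measured members of 20 gene lists, 1 point per gene, filled where called, with a bar at the median of each list. The immediate early, activation and T cell lists lie to the left with most members called, the plasma cell, ER and germinal centre lists lie mostly to the right, and the neutrophil and erythroid lists spread widely with few or no calls.

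Because spleen and LN came from the same mice, the KI effect in spleen was tested against the KI effect in LN. It differed for 104 genes (0.955%), 21 with a higher difference in spleen and 83 with a lower one, and 42 of the 104 were called in spleen. With the mouse as a block the count was 109 (21 and 88) as a random term and 596 (111 and 485) as a fixed term. Without KI mouse 5, KI mouse 6, Wt mouse 1 and Wt mouse 2 of spleen it was 118, 4, 37 and 7, and with the same mice left out in both tissues 31, 15, 3 and 68. Of the 1833 spleen calls, 1117 (60.9%) were also called in LN with the same sign and 9 with the opposite sign. The 1117 made up 39.4% of the 2833 LN calls, which were 26.0% of all genes (13.8% called higher). The plasma cell genes Mzb1 and Sdc1 rose less in spleen: Mzb1 had a log2 difference of 1.26 in spleen and 2.93 in LN, and Sdc1 of 2.53 in spleen and 4.17 in LN. Plk3 and Mir22hg had the larger decreases in spleen: Plk3 had -2.43 in spleen and -0.79 in LN, and Mir22hg, the host transcript of a microRNA, -3.25 in spleen and -0.29 in LN. Sema7a, a membrane semaphorin, rose by 0.54 in spleen, a call lost under every omission, and by 2.96 in LN, and Neil1, a DNA glycosylase of germinal centre B cells, had 0.46 in spleen and 2.30 in LN. Apol7c, an apolipoprotein L family member of dendritic cells, had 0.49 in spleen, not called, and -2.33 in LN. All 23 interferon genes and all 24 mitosis genes were called higher in LN, against 3 and 0 in spleen. The 2 lists had opposite signs in spleen. All 23 interferon genes had positive differences there (median 0.59, against 2.59 in LN). All 24 mitosis genes had negative ones (median -0.59, against 1.27 in LN), none of them called. The difference between tissues was called for 2 interferon genes and 1 mitosis gene.

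The KI spleens differed from each other outside the antibody genes mainly in red cell and a few other genes, given here as a description with no test, among genes whose Wt spleens lay within 1.5-fold of each other. Higher in KI mouse 5 were Hbb-bt, a beta globin, with 1752 and 172 in KI spleens, against 52 and 48 in Wt spleens, and Alas2. Alas2, the haem synthesis enzyme of red cells, was at 1038 and 114 in KI spleens, against 21.4 and 26.7 in Wt spleens. Il21, the cytokine of follicular helper T cells, was at 65.2 and 7.16 in KI spleens, against 51.1 and 62.1 in Wt spleens, so KI mouse 6 was low while KI mouse 5 was at the Wt level. Gbp2b and Pipox were also higher there. Higher in KI mouse 6 were Map7, a microtubule-associated protein, with 27.4 and 270.1 in KI spleens, against 442 and 331 in Wt spleens, and 5 others. Xkr6 was at 20.6 and 179.8 in KI spleens, against 21.4 and 20.4 in Wt spleens. Eps8l1 was at 294 and 1488 in KI spleens, against 728 and 664 in Wt spleens. Trim36, Epx and Rab44 completed them. In Map7 the Wt values were nearer KI mouse 6, and in Xkr6 they were nearer KI mouse 5.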

How the data were processed

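RNA-seq of whole-tissue cells was analysed in 2 KI and 2 Wt spleens, with the other 7 libraries of the series in the same fit. Per the submitters' processing notes, the tools named are STAR 2.5, Subread 1.4.6 with featureCounts, FastQC 0.11.5 and DESeq2 1.26.0; GRCm39 was the build, and neither roles nor order are stated. The deposited table gives the authors' normalised signal per gene and library. Within each library every value was a whole multiple of a common step (tolerance 0.05 reads), as counts divided by a size factor would be; the division was read from the values, and depth was taken as the number of steps. A check of that recovery needs more low values than the spleen libraries held, so no count test was run. Each gene reached at least 109 in some library, so low expression is outside these data. The sources used here do not give the annotation release, the strandedness or the filter on genes.

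The main test was limma 3.58.1 (R 4.3.3, with statmod 1.5.0), with trend and robust empirical Bayes, on log2(value + 1) over 11 libraries in 6 groups of tissue and genotype (5 residual degrees of freedom), Benjamini-Hochberg adjusted over 10885 genes and called under 0.05. Fold changes are on that log2 scale, which understates those of low genes. Errors are limma standard errors. The procedure was tested on simulated data. An exact permutation test of 2 against 2 mice cannot go below a p of 0.333, so none is given for single values. Counting intervals cover counting error only.

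Spleen and LN of 1 number come from 1 mouse, per the labels, and their deviations from the group means correlated over genes (0.403 in Wt, 0.9 in KI, the deviations of the 2 mice of a group being mirror images), so a fit with the mouse as a block is given for the difference between tissues. The spleen comparison has no shared mouse, but the main fit estimated its spread from spleen and LN of the same mice as if independent. With the mouse as a random block, the consensus correlation was 0.0168 and the spleen count 1831. Named genes followed a rule: the BCL2 family, the 12 largest called increases and decreases outside receptor segments, predicted genes and pseudogenes, listed members with the smallest p, 6 genes per direction that separate the KI spleens, and the 6 smallest p between tissues. Some genes that meet the rule are not reported here. Ribosomal protein kinases and pseudogenes were removed from the prefix list of ribosomal proteins. The members, lists and rule were chosen with earlier results of these data known. Promoters and gene order came from RefSeq GRCm38.p6 by symbol (10656 of 10885 symbols matched), another build than that of the files.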

Additional observations from a re-analysis of the deposited data

Results flagged for a closer look

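For 16 of the genes named, the difference between KI and Wt differed between spleen and LN in the limma interaction test (adjusted p under 0.05 over all genes). The values below are the log2 difference in spleen minus that in LN of the same mice, from 2 mice a group.

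Some genes of antibody secretion rose less in spleen by limma: Jchain differed by -2.43 (adjusted p = 0.0302), Derl3 by -1.75 (adjusted p = 0.0297) and Mzb1 by -1.66 (adjusted p = 0.0146). Sdc1 differed by -1.64 (adjusted p = 0.0243) and Txndc5 by -1.15 (adjusted p = 0.036). Dnajb9, which fell in spleen, differed by -1.38 (adjusted p = 0.0332). A few activation genes and a chemokine had a larger decrease in spleen by limma: Rgs1 differed by -2.22 (adjusted p = 0.017), Plk3 by -1.64 (adjusted p = 0.0168) and Ccl4 by -3.12 (adjusted p = 0.0347). Of the lists, 1 of 24 immediate early genes, 2 of 20 other activation genes and 1 of 14 chemokines and cytokines were called in this test. Mir22hg and Gla, which are on none of these lists, differed by -2.95 (adjusted p = 0.0146) and -2.42 (adjusted p = 0.0247). Ccl4 had -2.70 in spleen and 0.42 in LN, the LN value not being called. Neil1 differed by -1.84 (adjusted p = 0.0146), Sema7a by -2.41 (adjusted p = 0.00157), the interferon-induced Oas1a by -1.83 (adjusted p = 0.036), and S1pr3 by -1.61 (adjusted p = 0.036), with -0.51 in spleen and 1.11 in LN. Apol7c was the gene of these with a positive value, 2.82 (adjusted p = 0.00157).

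The count of such genes over the whole table, 104, was 118 without KI mouse 5, 4 without KI mouse 6, 37 without Wt mouse 1 and 7 without Wt mouse 2. The summed plasma cell markers were 147335 and 96730 in KI spleens and 170935 and 174112 in KI LN, against 44529 and 41557 in Wt spleens and 22181 and 27422 in Wt LN, and their part in these differences was not tested.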

How the results depend on the processing

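Leaving out 1 spleen library (the lone mouse of its group is then assumed to vary like the others) left between 624 and 747 spleen calls, against 1833 in all, with 237 to 323 higher and 374 to 424 lower. Leaving out a mouse in both tissues, chosen after seeing the data, gave 645 calls (216 higher, 429 lower) for KI mouse 5, 626 (269, 357) for KI mouse 6, 677 (243, 434) for Wt mouse 1 and 815 (335, 480) for Wt mouse 2. Scaling to equal totals without immunoglobulin and haemoglobin genes gave 1427 higher and 816 lower, with the median of all genes at 0.10. The other settings gave between 1662 and 2453 calls: pseudocounts of 0.1 and 5, a mean of at least 100, quantile normalisation, fits on the spleen libraries alone and 1 weight for each genotype. With the mouse as a random replicate block the spleen count was 1831 and that of the difference between tissues 109; as a fixed term the tissue test gave 596 (111 higher, 485 lower), and the block changed no other count by over 1.5 times. The difference between tissues gave 288 calls with 1 weight for each genotype (63 higher, 225 lower). Under the omissions it gave 4 to 118 (1 to 10 higher, 3 to 108 lower), and with the same mice left out in both tissues 31 (2, 29), 15 (1, 14), 3 (0, 3) and 68 (8, 60), by limma. Signs turned past the threshold for Igkc, at 2.16 without KI mouse 6 in both tissues, and for Eps8l1, at 1.10 without KI mouse 5 in both tissues; neither was called in the full fit. The sign also turned, with no call, for 17 other named genes that were not called in the full fit. Of 116 named genes with a call, 14 lost it under at least 1 setting other than an omission. Named genes without a call gained 1 under some settings. These were 5 under the scaling without immunoglobulin and haemoglobin genes and 4 under quantile normalisation. With the 4 KI and Wt spleens alone they were 10, and with 1 weight for each genotype 6. Omissions leave fewer libraries; the cause of the other shifts was not tested. With 2 mice a group, each count rests on single libraries, and depth is not the limit for most genes, but values of a few reads, such as those of BC018473 in Wt, fix no fold.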
